A study of Mus musculus with 8 samples.

Results

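The enzymes of oxidative phosphorylation were followed, gene by gene and complex by complex, in mouse dorsal root ganglia (DRG) at rest and during the course of a paw inflammation caused by carrageenan. Their genes were chosen by name, as all those of the deposited count table that begin with Nduf (a, b, c, s and v series), Sdha to Sdhd, Uqcr, Cox4 to Cox8 or Atp5, and whose mean level over the 8 libraries was at least 1 CPM (counts per 1000000 counts of the library). Of 24421 genes in the table, 84 had such a name and 80 reached that level: 35 of complex I, 4 of complex II, 8 of complex III, 16 of complex IV and 17 of complex V. All 80 were among the 17328 genes with enough counts to be tested. The 4 that stayed below the floor were Cox6a2 (0.591 CPM), Cox8b (0.270 CPM), Cox7b2 (0.0978 CPM) and Cox8c (0 CPM), and the 4 just above it were Cox4i2 (1.05 CPM), Cox7a1 (1.37 CPM), Ndufa4l2 (1.45 CPM) and Cox6b2 (1.78 CPM).

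All libraries came from C57BL/6J mice, named WT in the sample titles. An age of 8 weeks was recorded for every group, the naive one included, and for the injected groups it is that at injection. The authors' methods give a range of ages that starts at this value. The 0d group was naive and untreated, and the 1d, 3d and 30d groups were taken 1, 3 and 30 days after 20 µl of 1% carrageenan, a seaweed polysaccharide that inflames tissue, was injected into the left hind paw. Each group had 2 libraries, and each library held pooled RNA from the lumbar ganglia of 2 to 3 mice, so that the spread between replicates is one between pools. No group was injected with vehicle, so that an effect of the injection and one of carrageenan cannot be told apart. Age at sampling, handling and day of collection were not separated from the time point either. Totals ran from 44123208 to 73580338 counts per library, and the 80 genes took between 0.87% and 0.953% of them.

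The tissue was labelled as DRG neurons. All 16 neuronal markers examined were detected, with a summed level of 25580 to 27390 CPM per library, but so were all 8 Schwann cell markers (5516 to 10900 CPM) and all 7 satellite glia markers (2906 to 3535 CPM). The values are thus those of whole ganglia, and in such bulk samples fewer cells of a type and less RNA per cell cannot be told apart.

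Oxidative phosphorylation takes place in the inner mitochondrial membrane. Complex I (NADH dehydrogenase) and complex II (succinate dehydrogenase, also an enzyme of the tricarboxylic acid cycle) pass electrons to ubiquinone, complex III passes them on to cytochrome c, and complex IV (cytochrome c oxidase) passes them to oxygen. Complexes I, III and IV pump protons, and complex V (ATP synthase) uses the proton gradient to make ATP. Most subunits are encoded in the nucleus and a few in mitochondrial DNA, and the genes followed here are all nuclear. Sensory neurons depend on this pathway for the ion pumping that follows firing and for transport along their long axons. The mitochondrially encoded subunits were not analysed here.

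Promoters of the genes were examined for motifs of the factors known to control nuclear respiratory genes, NRF1 and the ETS factor GABP, and for YY1. Promoter windows from RefSeq (GRCm38.p6), reaching from 250 bases before to 50 bases after a gene's start, were matched for 67 of the 80 genes, in 73 windows. A match to the NRF1 letters (GCGC, any base, T, GCGC) was held by 24.7% of these windows and by 4.60% of all 32851 windows of this length. For the ETS letters CCGGAAG the shares were 21.9% and 8.86%, and for the YY1 letters AAGATGGCG they were 12.3% and 1.40%. Common promoter elements differed less, with CCAAT in 42.5% against 37.4%, GGGCGG in 38.4% against 35.7% and TATAAA in 8.22% against 13.6%. Both strands were searched, and overlapping matches of different motifs were each counted. The median GC content was 57.7% in the windows of these genes and 52.7% in all windows, and a match is only a description of the letters. The 250 bases before the start are shown for 6 genes, 5′ to 3′ along the gene, with matches to the NRF1, ETS, YY1, CCAAT and TATAAA letters on either strand in capitals. Ndufa4, Ndufb7 and Atp5l are shown because each is among the 3 genes with the smallest p at 3d or 30d against 0d (Uqcrq, also among them, had no window), Cox6a1 and Sdha because they hold several NRF1 matches, and Cox7a1 as a gene of low level in ganglia. They lie at chr6:11907451-11907700 (minus strand), chr8:83566508-83566757 (plus), chr9:44920743-44920992 (minus), chr5:115348959-115349208 (minus), chr13:74350241-74350490 (minus) and chr7:30183921-30184170 (plus).
Ndufa4: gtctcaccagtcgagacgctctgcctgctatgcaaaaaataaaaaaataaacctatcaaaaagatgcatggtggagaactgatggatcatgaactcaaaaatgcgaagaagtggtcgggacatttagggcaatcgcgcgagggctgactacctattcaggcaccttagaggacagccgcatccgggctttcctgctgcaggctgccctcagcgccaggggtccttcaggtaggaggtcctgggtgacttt
Ndufb7: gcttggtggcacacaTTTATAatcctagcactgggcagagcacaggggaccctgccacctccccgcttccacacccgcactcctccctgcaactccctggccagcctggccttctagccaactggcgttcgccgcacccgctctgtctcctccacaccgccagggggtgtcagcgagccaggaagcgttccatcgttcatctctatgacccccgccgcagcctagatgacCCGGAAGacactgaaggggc
Atp5l: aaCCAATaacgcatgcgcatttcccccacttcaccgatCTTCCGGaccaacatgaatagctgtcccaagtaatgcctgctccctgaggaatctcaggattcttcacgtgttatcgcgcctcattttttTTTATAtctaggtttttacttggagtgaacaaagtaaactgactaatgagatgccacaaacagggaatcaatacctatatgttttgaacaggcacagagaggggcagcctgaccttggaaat
Cox6a1: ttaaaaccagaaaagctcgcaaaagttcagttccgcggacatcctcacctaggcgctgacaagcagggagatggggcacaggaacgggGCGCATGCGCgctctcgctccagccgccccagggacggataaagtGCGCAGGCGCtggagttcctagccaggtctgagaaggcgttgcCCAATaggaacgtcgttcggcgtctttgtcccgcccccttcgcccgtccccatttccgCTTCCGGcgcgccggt
Sdha: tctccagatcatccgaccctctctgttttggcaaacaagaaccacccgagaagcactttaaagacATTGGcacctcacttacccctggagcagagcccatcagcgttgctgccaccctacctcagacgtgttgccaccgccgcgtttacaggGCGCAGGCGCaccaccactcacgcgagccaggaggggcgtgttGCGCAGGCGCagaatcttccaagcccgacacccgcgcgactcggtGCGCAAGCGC
Cox7a1: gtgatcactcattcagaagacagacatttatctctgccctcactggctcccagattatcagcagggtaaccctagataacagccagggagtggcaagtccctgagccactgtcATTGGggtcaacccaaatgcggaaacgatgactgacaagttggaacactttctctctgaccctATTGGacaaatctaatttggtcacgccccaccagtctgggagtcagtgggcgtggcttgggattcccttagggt
Sdha, the flavoprotein of complex II, held 3 NRF1 matches, and Cox6a1, a ubiquitous subunit of complex IV, held 2 with 1 ETS match near the start. Ndufb7 and Atp5l held 1 ETS match each. Ndufa4 held none of the letters searched, and Cox7a1 held only 2 CCAAT matches.

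At 0d the genes were expressed at a high level. Per kilobase of gene length, their median was 94.0 CPM per kb against 6.07 CPM per kb over all tested genes, and 68 of the 80 were in the top 10% of tested genes. The medians were 84.8 CPM per kb for complex I, 79.8 for complex II, 134.5 for complex III, 217.5 for complex IV and 142.2 for complex V. The highest level was that of Atp5b, the catalytic beta subunit of ATP synthase, with 580 ± 14.6 CPM per kb (SD, n = 2). It was followed by Ndufa4, first described in complex I and now placed in complex IV, with 457 ± 12.2 CPM per kb, and by Cox6a1 with 451 ± 45.9 CPM per kb, and these last 2 did not differ beyond their spread. Atp5a1, the alpha subunit that forms the F1 ring together with Atp5b, had 308 ± 3.79 CPM per kb, a lower level than its partner's although the protein ring holds both in equal number.

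**Figure D1:**
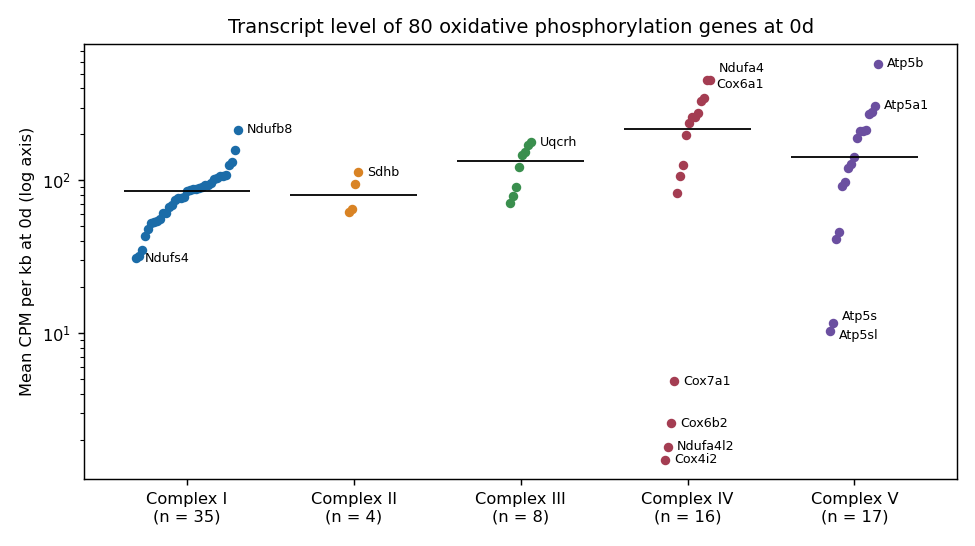
Mean level at 0d in CPM per kb of gene length, on a log axis, of the 80 genes by complex. Each point is 1 gene (mean of 2 libraries) and each black line is the median of a complex. Complex IV holds both some of the highest levels and the 4 lowest, those of Cox7a1, Cox6b2, Ndufa4l2 and Cox4i2.

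Complex IV had the widest range as a ratio, from 1.49 to 457 CPM per kb, while complex V, from 10.4 to 580, was wider as a difference. Several subunits of complex IV are known to have tissue isoforms. The ubiquitous Cox4i1 had 345 ± 12.7 CPM per kb at 0d, whereas Cox4i2, its isoform known from lung and hypoxic cells, had 1.49 ± 0.152. Cox7a2 had 126 ± 9.38 CPM per kb and the heart and muscle isoform Cox7a1 had 4.82 ± 1.05. Ndufa4l2, a hypoxia-induced relative of Ndufa4, had 1.81 ± 0.556 CPM per kb, and Cox6b2, known from testis, had 2.57 ± 0.650. The 4 genes below the floor are also isoforms of restricted tissues, with Cox6a2 and Cox8b known from heart and skeletal muscle and Cox7b2 and Cox8c from testis. Cox6a2 was measured at 1.38 and 0.489 CPM in the 0d pools, 0.647 and 0.524 in the 1d pools, 0.843 and 0.383 in the 3d pools and 0.455 and 0.0143 in the 30d pools. The summed level of 15 skeletal muscle markers was highest in 0d replicate 1 (201 CPM) and lowest in 30d replicate 2 (32.4 CPM), where Cox6a2 was also highest and lowest. In the other libraries the order differed, as 30d replicate 1 had the next highest sum (164 CPM) with Cox6a2 at 0.455, and 1d replicate 1 had a sum of 44.4 CPM with Cox6a2 at 0.647.

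Complex I subunits lay closer together, from 30.9 CPM per kb for the accessory subunit Ndufs4 to 215 for the membrane arm subunit Ndufb8. Within complex II the flavoprotein Sdha (94.3 ± 0.118 CPM per kb) and the iron-sulfur protein Sdhb (113 ± 0.670) were above the membrane anchors Sdhc (65.3 ± 2.97) and Sdhd (62.5 ± 2.20). Of the 3 genes that encode the same mature c subunit of the ATP synthase rotor, Atp5g3 had 272 ± 1.49 CPM per kb. Atp5g1 had 142 ± 9.93 and Atp5g2 45.8 ± 0.458, and the levels lay apart in both libraries. Reads that map to several places were not counted. Of the 50-base words of the longest transcript, 0% for Atp5g3, 11.6% for Atp5g1 and 14.8% for Atp5g2 also occur in other genes. The part of such uncounted reads in the order of these levels was not tested. The lowest levels under complex V were those of Atp5s (11.6 CPM per kb) and Atp5sl (10.4 CPM per kb), which the names bring in but which encode factor B and a complex I assembly factor rather than subunits of the synthase. Both were kept in all counts, medians, ranges and sums given for complex V.

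The comparison of each time point with 0d asked whether these genes changed during inflammation and after recovery. No gene of the 80 passed edgeR's quasi-likelihood test at a Benjamini-Hochberg adjusted p under 0.05 in any comparison. That test called 60 genes for 1d (0.346% of those tested), 38 for 3d (0.219%), 4 for 30d (0.0231%) and 162 between 30d and 3d (0.935%). At an unadjusted p under 0.05, the number of the 80 that were lower was 1 for 1d, 14 for 3d, 22 for 30d and 3 for 30d against 3d, beside 2.11%, 2.44%, 6.02% and 6.97% of all tested genes. The number that were higher was 0, 0, 0 and 1, beside 2.35%, 3.51%, 6.23% and 6.04%. The counts of lower genes moved with single libraries, and so did the share of all tested genes that were lower, given in parentheses. At 3d the 14 became 7 without 0d replicate 2 (3.01%), 9 without 3d replicate 1 (1.02%) or 3d replicate 2 (1.06%) and 20 without 0d replicate 1 (2.41%). The 22 at 30d became 12 without 0d replicate 2 (3.88%), 11 without 30d replicate 1 (10.3%) and 38 without 30d replicate 2 (6.21%), so that without 30d replicate 1 the count was near the background. The 1 at 1d became 3 without 0d replicate 1 (1.43%) and 4 without 1d replicate 2 (1.13%), and without 1d replicate 1 the number higher was 5 (2.55% of all tested genes). Between 30d and 3d the 3 became 1 without 30d replicate 1 (11.7%) and 6 without 30d replicate 2 (5.88%), and without 30d replicate 1 the number higher was 9 (9.07%). The 1 was below the background of its fit, and the 6 and the 9 were near theirs. They became 2 without either library at 1d or without 3d replicate 2 (3.72% to 6.88%), and without either library at 3d no gene of the 80 was higher at that level. The other tools gave 0 calls among the 80 at 1d, at 3d and at 30d against 3d, and at 30d DESeq2 called 5 and limma-voom 0, where they called 186 and 8 of all tested genes. The comparisons with 0d share the same 2 libraries at 0d, so that a high or low value there enters all of them.

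At 3d, 73 of the 80 genes had a lower fitted level than in the naive group, and the median of their log2 fold changes was -0.081 (-5.47%), while the median over all tested genes was -0.0021. The shift by complex was -0.087 for complex I, -0.0052 for complex II, -0.056 for complex III, -0.10 for complex IV and -0.049 for complex V. All 16 genes of complex IV and all 8 of complex III were on the lower side, as were 32 of 35 in complex I and 15 of 17 in complex V, but in complex II only 2 of 4. Both libraries at 3d lay below both at 0d for 46 of the 80 genes, beside 19.6% of all tested genes, and above both for 1, beside 19.9%. These shares describe the list, which was given no test of its own.

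Leaving out single libraries moved this shift at 3d. Its median was -0.039 without 0d replicate 2 and -0.12 without 0d replicate 1. Between these and the other omissions the sign did not turn.

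The smallest p at 3d among the 80 was that of Atp5l, subunit g in the membrane part of ATP synthase, which takes part in pairing the synthase into dimers. It was measured at 21.3 and 21.2 CPM in the 0d pools, 18.1 and 19.3 in the 1d pools, 15.3 and 16.2 in the 3d pools and 15.3 and 20.0 in the 30d pools. All 6 libraries after injection were below both at 0d, and the 2 at 30d were far apart. Its log2 fold change at 3d was -0.43 ± 0.12 (SE), with an adjusted p of 0.276. In fits of 0d and 3d alone, or without either library at 30d, its adjusted p was between 0.0248 and 0.0345. Of the 50-base words of its longest transcript, 7.49% also occur in transcripts of 640 other genes. Reads that map to several places were not counted. That transcript holds 6261 such words, while the counted length of the gene is 513 bases. The share within the counted bases was not measured.

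Ndufa4 and Uqcrq followed at 3d. Ndufa4 was measured at 221 and 229 CPM in the 0d pools, 214 and 219 in the 1d pools, 201 and 203 in the 3d pools and 192 and 201 in the 30d pools. Every library after injection was below both at 0d. Its log2 fold change was -0.16 ± 0.043 at 3d (adjusted p 0.298 by edgeR's quasi-likelihood test). Uqcrq, a small subunit of complex III, was measured at 85.2 and 84.3 CPM in the 0d pools, 76.7 and 76.5 in the 1d pools, 74.8 and 74.3 in the 3d pools and 69.9 and 74.8 in the 30d pools. Its replicates lay within about 1 CPM of each other at 0d, 1d and 3d. The 6 libraries after injection were all below those at 0d, and its log2 fold change at 3d was -0.18 ± 0.052 (adjusted p 0.322).

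**Figure D2:**
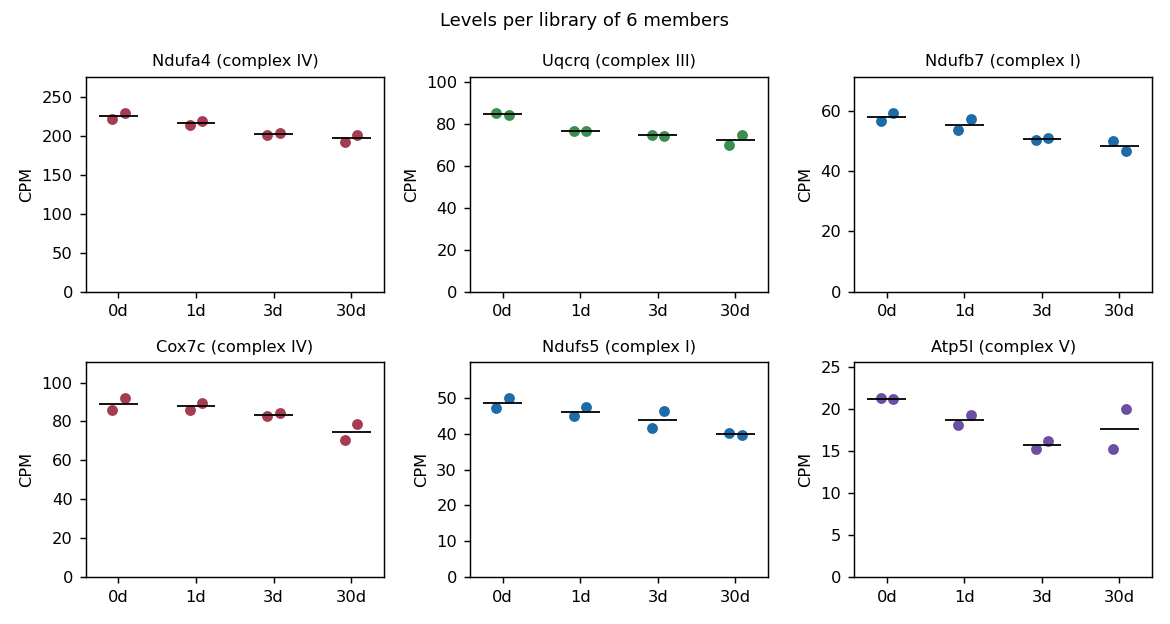
Level in CPM (y axis from 0) of 6 genes in every library, by time point. Each point is 1 library and each black line is the mean of 2. Ndufa4, Uqcrq and Atp5l have all 6 libraries after injection below both at 0d, Cox7c has its 2 lowest at 30d, and the libraries of Atp5l lie apart at 30d.

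The genes that were highest at 3d against 0d moved little. Ndufb3, an accessory subunit of complex I, had a log2 fold change of 0.055, Ndufa1 of 0.025 and Ndufc2 of 0.019, all with an adjusted p of 0.999. Ndufb3 was measured at 46.7 and 49.7 CPM at 0d and at 50.6 and 49.5 at 3d, so that the groups overlapped. For Ndufa1 the sign turned without 0d replicate 1 (-0.021) and without 3d replicate 2 (-0.040).

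**Figure D3:**
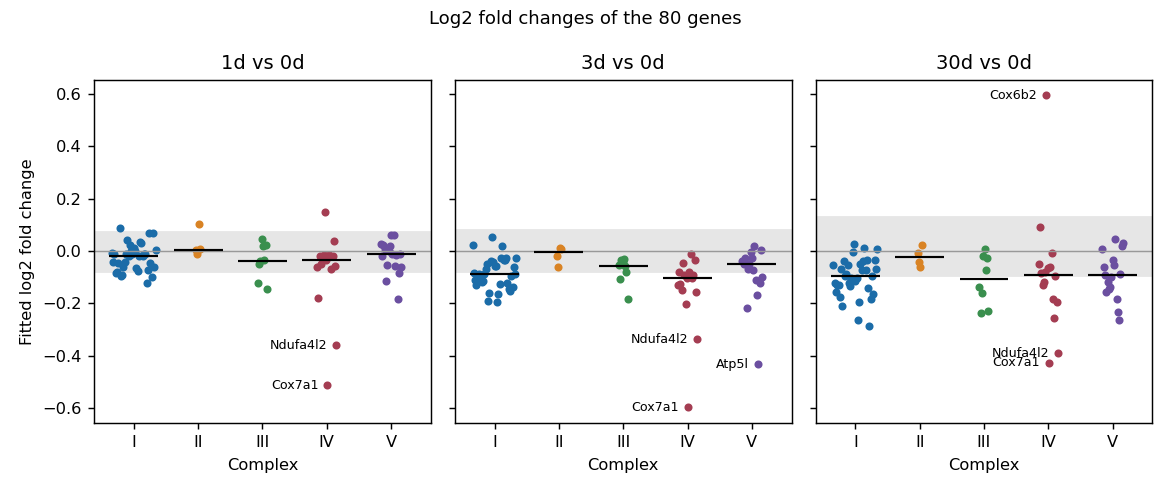
Fitted log2 fold change against 0d of the 80 genes, by complex, at 1d, 3d and 30d. Each point is 1 gene, black lines are medians of a complex, and the grey band spans the interquartile range of all tested genes. Points lie mostly below 0 at 3d and 30d, with medians of -0.10 (3d) and -0.090 (30d) for complex IV, and those of complex II stay near 0.

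At 30d, 69 of the 80 genes had a lower fitted level than in the naive group, and the median of their log2 fold changes was -0.091 (-6.11%) against -0.00040 over all tested genes. The medians were -0.096 for complex I, -0.024 for complex II, -0.11 for complex III, -0.090 for complex IV and -0.093 for complex V. Both libraries at 30d were below both at 0d for 43 genes, beside 20.2% of all tested genes, and above both for 1, beside 19.4%. In complex II no gene had libraries that lay apart. The median was -0.15 without 30d replicate 2, -0.053 without 30d replicate 1 and -0.041 without 0d replicate 2.

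The 3 smallest p at 30d were those of Ndufa4, Uqcrq and Ndufb7, a subunit of the membrane arm of complex I. Ndufa4 had a log2 fold change of -0.20 ± 0.043 (-12.7%) and an adjusted p of 0.0974, and Uqcrq of -0.23 ± 0.052 (-14.6%) and an adjusted p of 0.118. Ndufb7 was measured at 56.9 and 59.5 CPM in the 0d pools, 53.8 and 57.4 in the 1d pools, 50.6 and 51.1 in the 3d pools and 50.1 and 46.8 in the 30d pools. Its libraries at 3d and 30d were below all 4 of the earlier ones, and its log2 fold change at 30d was -0.26 ± 0.062 (-16.7%), with an adjusted p of 0.121. None of the 50-base words of the longest transcripts of these 3 genes occur in other genes. They lie at chr6:11900373-11907446, chr11:53428948-53430831 and chr8:83566758-83571623 in the deposited table (mm10).

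DESeq2 called Ndufa4 (adjusted p 0.0106), Uqcrq (0.0283) and Ndufb7 (0.0345) at 30d, together with Cox7c and Ndufs5. A fit by edgeR with no filter on low counts called these 5 and Uqcr11, so that the call at 30d depended on the tool and the filter. These settings called more genes in all, 186 by DESeq2 and 177 with no filter against 4. Without 30d replicate 2 edgeR called 202 genes, among them Uqcrq, Cox7c, Ndufa4 and Atp5l, and without 0d replicate 1 it called 90, among them Ndufb8 alone of the 80. Cox7c and Ndufs5 were named for these calls, after their values were seen. Cox7c, a small subunit of complex IV, was measured at 85.8 and 91.9 CPM in the 0d pools, 85.7 and 89.7 in the 1d pools, 82.6 and 84.3 in the 3d pools and 70.3 and 78.6 in the 30d pools. Both libraries at 30d were the lowest of the 8 (log2 fold change -0.25 ± 0.061, adjusted p 0.126). Ndufs5, an accessory subunit of complex I, was measured at 47.3 and 49.97 CPM in the 0d pools, 45.1 and 47.4 in the 1d pools, 41.5 and 46.5 in the 3d pools and 40.1 and 39.7 in the 30d pools. Its log2 fold change at 30d was -0.29 ± 0.069 (adjusted p 0.13), but 95.1% of its exon bases are also annotated to BC002163 and a read pair was counted for both. For Cox7c, 27.9% of the 50-base words of its longest transcript occur in other genes as well.

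Among the genes on the higher side at 30d, Cox6b2 had the highest fold change, at a low level. It was measured at 1.87 and 1.30 CPM in the 0d pools, 2.03 and 1.48 in the 1d pools, 1.30 and 1.45 in the 3d pools and 2.90 and 1.90 in the 30d pools. The log2 fold change was 0.60 at 30d against 0d (adjusted p 0.47) and 0.80 ± 0.32 at 30d against 3d (adjusted p 0.301), and 30d replicate 1 carried the higher value. Atp5j, the coupling factor 6 of the synthase's stalk, had a log2 fold change of 0.045 at 30d (adjusted p 0.791), and 13.6% of its exon bases are shared with Gabpa. Atp5sl had 0.030 (adjusted p 0.91), and its sign turned without 0d replicate 1 or without 30d replicate 2.

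At 1d the fitted level was lower for 54 of the 80 genes, and the median log2 fold change was -0.018 (-1.26%). Both libraries at 1d were below both at 0d for 14 genes, beside 16.4% of all tested genes, and above both for 2, beside 15.5%, so that the lower share was near the background. The median was 0.012 without 1d replicate 1, 0.0080 without 0d replicate 2, -0.064 without 0d replicate 1 and -0.075 without 1d replicate 2, and no direction can be given for the list at this time. Uqcrq was the gene with the smallest p (log2 fold change -0.14 ± 0.052, adjusted p 0.798), followed on the lower side by Uqcr10 of complex III (-0.12 ± 0.066) and the iron-sulfur subunit Ndufs8 of complex I (-0.10 ± 0.054), both with an adjusted p of 1. On the higher side were Sdhc, a membrane anchor of complex II (0.10 ± 0.060), Ndufv1, which binds NADH (0.068 ± 0.053), and Atp5g3 (0.062 ± 0.058), all with an adjusted p of 1. The signs of Ndufv1 and Atp5g3 turned without 1d replicate 2.

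Between 3d and 30d the median of the list depended on single libraries. The fitted level was lower at 30d for 45 genes and higher for 35. The median of the log2 fold changes was -0.013, but it was 0.018 without 30d replicate 1 and -0.058, with 65 of 80 genes lower, without 30d replicate 2. Libraries at 30d lay below both at 3d for 19 genes, beside 23.5% of all tested genes, and above both for 6, beside 22.9%. Atp5d, the delta subunit in the central stalk of the synthase, had the smallest p. It was measured at 261 and 251 CPM at 3d and at 234 and 234 at 30d, and the groups did not overlap (log2 fold change -0.13 ± 0.043, adjusted p 0.205). Next on the lower side were Cox7c (-0.16 ± 0.061, adjusted p 0.262) and Uqcr11, a small subunit of complex III (-0.13 ± 0.060, adjusted p 0.379). On the higher side, after Cox6b2, came Atp5sl, at 23.0 and 24.3 CPM at 3d and 24.7 and 27.0 at 30d, without overlap (0.13 ± 0.081, adjusted p 0.519). Atp5l was at 0.17 ± 0.12 (adjusted p 0.567), and at -0.044 without 30d replicate 2.

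For 10 genes all 6 libraries after injection were below both at 0d, namely Atp5e, Atp5l, Atp5o, Cox7a1, Cox7b, Ndufa4, Ndufs4, Ndufs8, Uqcr11 and Uqcrq. This pattern, chosen after the values were seen, was shown by 4.10% of all tested genes. The opposite pattern was shown by 0 of the 80 and by 3.50% of all tested genes. Atp5e, the epsilon subunit of the F1 stalk, was measured at 52.9 and 52.5 CPM in the 0d pools, 46.4 and 51.0 in the 1d pools, 42.7 and 48.0 in the 3d pools and 44.8 and 52.2 in the 30d pools. The groups after injection overlapped one another, and the last of these values lay only just below the level at 0d. Cox7a1 was at 1.49 and 2.04 CPM in the 0d pools, 1.34 and 1.14 in the 1d pools, 1.12 and 1.22 in the 3d pools and 1.45 and 1.19 in the 30d pools. Its log2 fold change was -0.51 ± 0.33 at 1d and -0.60 ± 0.32 at 3d (adjusted p 1 and 0.902), with a wider error than that of the abundant genes.

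The precision was enough to bound the changes of most genes. The 95% interval of the log2 fold change, not adjusted for the number of genes, lay within -0.5 and 0.5 for 76 of the 80 genes in the 1d comparison, for 75 in that of 3d, for 75 in that of 30d and for 76 between 30d and 3d. In each comparison those outside included Cox4i2, Cox6b2, Cox7a1 and Ndufa4l2, whose counts were low, and at 3d and 30d also Atp5l. Within -0.25 and 0.25 the counts were 66 (1d), 54 (3d), 43 (30d) and 66 (30d against 3d). With 2 libraries per group an exact permutation test of any single gene could not give a two-sided p below 0.333, so that p-values rest on the spread shared across genes.

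The summed levels of the complexes describe the same data in CPM. Complex I summed to 2575 ± 80.3 (0d), 2532 ± 129 (1d), 2430 ± 4.56 (3d) and 2409 ± 92.5 CPM (30d; SD, n = 2). Complex IV summed to 1887 ± 96.7, 1847 ± 74.2, 1764 ± 1.96 and 1752 ± 89.9 CPM. Complex V, to which Atp5b and Atp5a1 contribute most, went from 3480 ± 76.4 to 3467 ± 151, 3356 ± 15.8 and 3323 ± 89.8 CPM. Complex III stood at 828.7 ± 29.7, 821.7 ± 26.4, 791.4 ± 4.17 and 787.1 ± 38.2 CPM, and complex II at 548.5 ± 6.71, 554.2 ± 25.7, 540.8 ± 1.81 and 541.9 ± 14.1 CPM. The differences were of the size of the spread between replicates at 0d, 1d and 30d, and both libraries at 3d lay below both at 0d in every complex.

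The replicates of 1 time point also differed as a list. At 0d, 66 of the 80 genes were lower in replicate 1 than in replicate 2, with a median difference of -0.066 on the log2 scale. At 1d this held for 68 genes (median -0.092), at 3d for 46 (-0.012) and at 30d for 65 (-0.080), whereas among all tested genes the share lower in replicate 1 was between 48.9% and 50.3%. At 0d, 1d and 30d the shift between pools treated alike was thus close in size to the medians at 3d and 30d, and at 3d it was smaller. Relative to the mean at 0d, the median of the 80 genes was -0.033 and 0.033 in the 0d pools, -0.074 and 0.014 in the 1d pools, -0.092 and -0.063 in the 3d pools and -0.15 and -0.050 in the 30d pools, with a pooled SD within groups of 0.054. The libraries at 3d and 30d were all below both at 0d in this median, and 30d replicate 1 was the lowest of the 8.

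**Figure D4:**
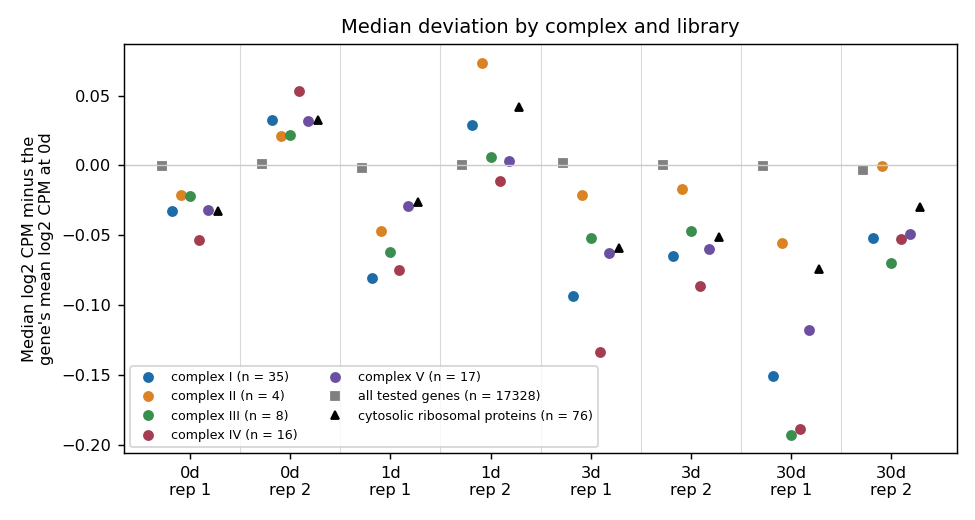
Median over each set, in every library, of the log2 CPM of a gene minus its mean log2 CPM at 0d. Circles are the 5 complexes, grey squares all tested genes and black triangles 76 cytosolic ribosomal proteins. The grey squares stay at 0, the replicates of 0d, 1d and 30d are offset from each other in every complex, and 30d replicate 1 is the lowest library for every complex.

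Markers of cell types differed between the libraries. In 30d replicate 1 the 8 Schwann cell markers summed to 5516 CPM (7779 in replicate 2, 10900 and 7976 at 0d), and the 7 erythroid markers of the table to 548.5 CPM (288.1 in replicate 2, 147 and 296 at 0d). The 8 adipocyte markers summed to 46.3 and 15.5 CPM at 30d and to 12.1 and 23.8 at 0d, and the 7 satellite glia markers to 2906 and 3075 CPM at 30d and to 3535 and 3498 at 0d. The 16 neuronal markers summed to 25580 and 26050 CPM at 30d and to 27140 and 26640 at 0d. In the 3d pools the sums were 27390 and 27080 CPM for neuronal, 9131 and 9056 for Schwann cell, 3411 and 3413 for satellite glia, 187 and 196 for erythroid and 18.7 and 18.5 for adipocyte markers. The 15 muscle markers summed to 201 and 107 CPM at 0d and to between 32.4 and 164 CPM in the later libraries, the 10 macrophage markers to between 164.8 and 194.7 CPM, and the 6 endothelial markers to between 94.97 and 111 CPM. None of these markers was at 0 in all libraries. Against 0d, the markers that passed edgeR's test were Myh1 of muscle at 1d (log2 fold change -1.47, adjusted p 0.0324) and at 3d (-1.61, 0.0237), Cx3cr1 of macrophages at 3d (-1.02, 0.00794), Calca and Scn10a of nociceptive neurons at 3d (0.32, 0.0237 and 0.22, 0.0499) and Apoe of satellite glia at 30d (-0.28, 0.0322). At 30d against 3d they were Calca (-0.42, 0.00201), Tac1 (-0.28, 0.011), Apoe (-0.23, 0.0128) and Myh1 (1.35, 0.0292). Glul, also of satellite glia, was at 0.33 at 3d (adjusted p 0.527) and at 0.12 at 30d (0.645). The part of these markers in the shift of the 80 genes was not tested.

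Gene length moved with the result as well. The 80 genes are short, with a median length of 725.5 bases against 2762.5 over all tested genes, and 66.2% of them against 9.64% of all tested genes were under 1 kb. Genes under 1 kb outside the list had medians of -0.030 (3d) and -0.033 (30d) on the log2 scale, beside -0.096 and -0.10 for the 53 of the 80 under 1 kb. From 1 to 2 kb the medians were -0.015 and -0.032 for other genes and -0.053 and -0.064 for 22 of the 80. The 5 from 2 to 4 kb had medians of -0.039 at 3d and 0.0066 at 30d. Across the 80 genes Spearman's rho between log2 fold change and log2 length was 0.32 at 3d and 0.41 at 30d, against 0.089 and 0.11 over 17328 genes, as a description of genes that share the same libraries. Pearson's correlation was 0.32 at 3d and 0.28 at 30d across the 80 genes. Over the 17328 genes it was -0.0053 and -0.017, so that the sign there depended on the measure.

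**Figure D5:**
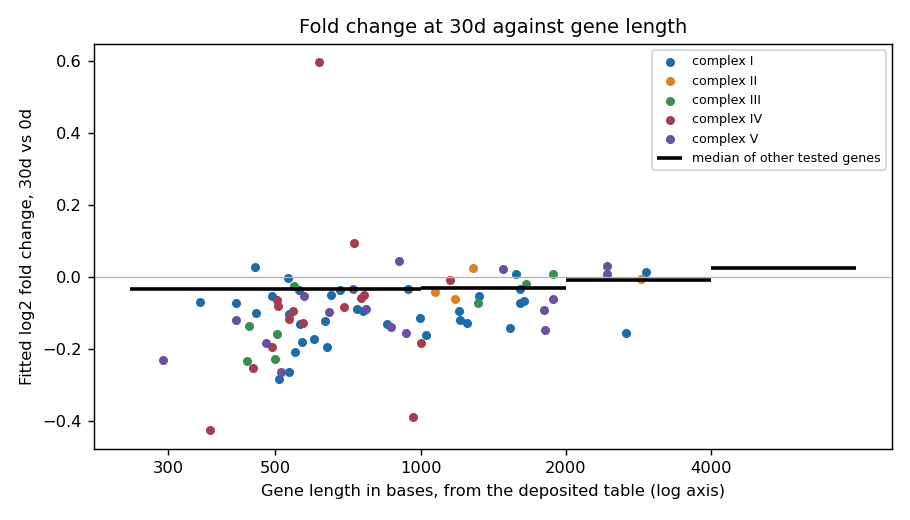
Fitted log2 fold change at 30d against 0d (y axis) by gene length in bases (x axis, log scale). Points are the 80 genes, coloured by complex, and black bars are the medians of other tested genes in 4 length classes. Most points under 1 kb lie below the bar of their class, which stands at -0.033.

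When a smooth trend with length was removed from each library, the median of the 80 genes was -0.083 at 3d and -0.077 at 30d, and that of all tested genes moved to -0.013 and -0.026. Relative to all tested genes, the median of the 80 was then -0.071 at 3d (-0.079 without the trend) and -0.051 at 30d (-0.091), a smaller shift at 30d by over 1.5 times. The number lower at an unadjusted p under 0.05 became 10 and 15, beside 2.20% and 5.86% of all tested genes. With a trend on GC content removed instead, the medians were -0.091 and -0.11 (all tested genes -0.012 and -0.022), and with both removed they were -0.083 and -0.078 (-0.012 and -0.025). No gene of the 80 was called under these settings.

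Cytosolic ribosomal proteins, another set of short and abundant transcripts, were set beside the 80 genes. Of 76 such genes 0 were called, and their medians were 0.0061 (1d), -0.057 (3d) and -0.056 (30d), with 68 and 63 on the lower side at 3d and 30d. The per-library medians were -0.032 and 0.032 in the 0d pools, -0.026 and 0.042 in the 1d pools, -0.059 and -0.052 in the 3d pools and -0.074 and -0.030 in the 30d pools. Replicate 1 was thus lower than replicate 2 at all 4 time points, as for the 80 genes. The difference between the sets was not tested.

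The rest of the pathway was followed by lists. None of the 14 complex I, 4 complex II, 6 complex III or 21 complex IV assembly factors and 4 genes of synthase assembly and inhibition passed the test in either direction, nor did 17 genes of the tricarboxylic acid cycle. Of the 21 complex IV assembly factors, 14 were on the lower side at 3d (median -0.065) and 17 at 30d (-0.079). Those of complex III had medians of -0.086 at 3d and 0.041 at 30d, those of complex I of -0.053 and -0.015, with 9 and 7 of 14 on the lower side, and those of complex II of 0.030 and -0.12, with 1 and 4 of 4. The genes of synthase assembly and inhibition stood at 0.0053 and 0.0055, with 2 of 4 on the lower side at both times. For the tricarboxylic acid cycle the medians were -0.026 at 3d and -0.051 at 30d. A further 7 genes of the pathway lay outside the name pattern, namely Ndufab1, Cyc1, cytochrome c (Cycs), Slc25a4, Slc25a5, Usmg5 and 2010107E04Rik. They had medians of -0.025 and -0.072, with 7 of 7 on the lower side at 30d. Ndufab1 (complex I), Cyc1 (complex III), Usmg5 and 2010107E04Rik (both complex V) are subunits that the names left out. The counts, medians and sums by complex do not include them.

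The 12 regulators of mitochondrial biogenesis gave 0 calls as well. Their medians were -0.0025 (1d), -0.026 (3d) and 0.023 (30d). Ppargc1a, the coactivator that drives the programme, was measured at 38.6 and 34.2 CPM in the 0d pools, 33.1 and 29.3 in the 1d pools, 33.1 and 32.2 in the 3d pools and 40.1 and 38.9 in the 30d pools. It was lowest at 1d and 3d and highest at 30d, with a log2 fold change of 0.28 ± 0.079 at 30d against 3d (adjusted p 0.14). Tfam, which packages and transcribes mitochondrial DNA, ranged only from 19.4 to 21.9 CPM over the 8 libraries. Nrf1, whose motif 17 of the 67 genes with a promoter window held, had log2 fold changes of -0.11 ± 0.10 at 3d and 0.083 ± 0.10 at 30d (adjusted p 0.999 and 0.786).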

How the data were processed

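RNA was measured by RNA-seq in 8 libraries of whole mouse DRG, 2 per time point. The authors used cutadapt 2.10 for trimming, STAR 2.7.5a for alignment to mm10 and featureCounts 2.0.1 to count read pairs per gene, and the deposited table holds these raw counts without normalization. Per the file headers, a pair that lay in several genes counted for each of them, strand was not used, and reads mapped to several places were left out. Its gene lengths are those of the deposited annotation.

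The labels gave each library's time point and replicate number. The 80 genes, their lists and the alternatives were chosen with earlier results of these data known. Genes were filtered with filterByExpr in edgeR 4.0.16 (R 4.3.3), which dropped 7093 genes that held no more than 0.012% of a library's counts, and library sizes were scaled by TMM (factors 0.993 to 1.01). All 8 libraries entered 1 quasi-likelihood fit with robust estimation and time point as the only term, from which 4 comparisons were tested, each adjusted over 17328 genes by the Benjamini-Hochberg method. CPM are counts scaled to TMM library sizes, per-library medians use log2 CPM with a prior count of 2, and a shift of a list is described by counts and medians without a test. For each comparison, the 3 genes with the smallest p on either side were named, with others where the text says so. DESeq2 1.42.0 and limma 3.58.1 (voom) were alternatives, beside other normalizations and filters, fits of the compared groups alone, a replicate block, trends removed on length (spline with 5 degrees of freedom) and on GC content of GENCODE vM21 transcripts (98.5% of genes), and omission of single libraries. Over all tested genes, same-numbered replicates did not deviate together (correlations of -0.014 to 0.044), although the 80 genes were mostly lower in replicate 1 in each group. Within groups the chi-square of the counts over its degrees of freedom was 7.22 to 25.6, far above counting noise, so that for abundant genes the spread between pools limits the precision more than depth does. Genes near the CPM floor have larger errors, in which counting error also has a part.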

Additional observations from a re-analysis of the deposited data

How the results depend on the processing

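No gene of the 80 was called in any comparison by limma-voom, under the other normalizations, without robust estimation or with length and GC trends removed. At 30d against 0d the number called was 6 with no filter on low counts (177 of all genes), 5 by DESeq2 (186), 1 (Cox7c) with the replicate block (69), whose numbers did not pair the samples over all genes, 1 (Ndufa4) at an adjusted p under 0.10 (72), and 0 to 4 (1 to 202) when single libraries were left out. At 3d it was 1 (Atp5l) with the 2 compared groups fitted alone (121) and 0 to 1 (1 to 121) when single libraries were left out. The block changed no other call. With 1 library left out, a lone library was assumed to vary like the other groups, and the filter then kept more genes. The median log2 fold change ranged from -0.0747 to 0.0122 at 1d, from -0.116 to -0.0391 at 3d, from -0.153 to -0.0405 at 30d and from -0.0577 to 0.0178 at 30d against 3d. Signs turned for Ndufa1 at 3d (-0.0205 and -0.0402, in a range up to 0.0888), Atp5sl at 30d (-0.000271 and -0.0348, up to 0.0894), Ndufv1 (-0.00723, up to 0.138) and Atp5g3 (-0.0209, up to 0.139) at 1d, and Atp5l at 30d against 3d (-0.0435, up to 0.347). The causes were not tested. Of the values recomputed under alternatives, 83 counts stayed at 0 and 9 moved. For 86 medians the move was less than the spread between replicates (some near 0 with a change of sign), and for 2 it was more. Of the fold changes of named genes 510 kept their direction and side of the threshold, 7 turned and 11 came to pass the threshold. Counts were lowest, and intervals wide, for Cox4i2, Cox6b2, Cox7a1 and Ndufa4l2.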
